A study of Homo sapiens with 2 samples.

Results

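Small nucleolar RNA (snoRNA) host transcripts are spliced RNAs whose introns carry snoRNAs. The 10 examined here, GAS5, SNHG1, SNHG5, SNHG7, SNHG8, SNHG12, SNHG15, ZFAS1, EPB41L4A-AS1 and DANCR, were chosen by symbol from the 25268 symbols listed. All 10 were found, and all averaged at least 1 FPKM over the 2 libraries (fragments scaled by transcript length and library size), which put them among the 11961 genes called measured below. The first library came from C4-2B MDVR cells given 20 µM Indocin for 3 days, and the second from C4-2B MDVR cells given the vehicle DMSO for the same 3 days. C4-2B MDVR is an established line of castration-resistant prostate cancer with resistance to enzalutamide, an antiandrogen, and the medium of both cultures held 20 µM enzalutamide. Indocin is indomethacin, a cyclooxygenase inhibitor. With 1 library per group and 1 cell line, no difference below has a replicate, a test or an error, and the number of reads behind each value was unknown.

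Intronic snoRNAs are released when the host RNA is spliced and the intron is trimmed, and they guide 2'-O-methylation (box C/D snoRNAs) or pseudouridylation (box H/ACA snoRNAs) of ribosomal and spliceosomal RNA. What is left of these hosts is an exported RNA with short reading frames that end far from its last exon junction. Ribosomes that read such frames bring in the nonsense-mediated decay (NMD) machinery, so the spliced host RNAs are short-lived and are known to accumulate when translation or NMD is blocked. Several host genes, like those of ribosomal proteins, begin with a terminal oligopyrimidine (TOP) tract, a C followed by C or T, which ties translation of the RNA to growth signals. The level of a spliced host RNA therefore reflects its transcription, its translation and its decay together.

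By the snoRNAs they are generally known to carry, GAS5, SNHG1, SNHG5 and ZFAS1 are hosts of box C/D snoRNAs only. SNHG7, SNHG8, SNHG15, EPB41L4A-AS1 and DANCR are hosts of box H/ACA snoRNAs only, and SNHG12 carries both kinds. A snoRNA of each kind is shown as cargo of its host, SNORD27 from an intron of SNHG1 and SNORA24 from an intron of SNHG8, in DNA letters from GENCODE release 29 (GRCh38). Capitals mark the C box TGATGA and the D box CTGA of SNORD27, and the ACA box near the end of SNORA24.
SNORD27, chr11:62855012-62855083, minus strand: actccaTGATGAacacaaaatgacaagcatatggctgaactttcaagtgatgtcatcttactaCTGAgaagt
SNORA24, chr4:118279190-118279320, plus strand: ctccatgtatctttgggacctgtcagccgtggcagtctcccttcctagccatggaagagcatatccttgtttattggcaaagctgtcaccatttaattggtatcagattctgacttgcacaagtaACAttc

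The starts of the hosts are shown because several of them look alike in sequence. The RefSeq table (GRCh38.p14) held a start region for 9 of the 10 hosts. The lines below give 40 bases before and 30 bases from each start on, in the direction of the gene. Capitals mark TATAA and the pyrimidine tract, where these were found. The stretch searched for the tract ended shortly after the start, so the run of C or T in SNHG12 goes on past its capitals. TATAA was searched on the strand of the gene, 40 to 16 bases before the start, and the tract, a C with 4 or more C or T after it, had to begin within 5 bases of the start, so the 2 features could not overlap.
SNHG5, chr6:85678704-85678773, minus strand: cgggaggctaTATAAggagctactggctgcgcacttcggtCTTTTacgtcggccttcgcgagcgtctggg
SNHG7, chr9:136728155-136728224, minus strand: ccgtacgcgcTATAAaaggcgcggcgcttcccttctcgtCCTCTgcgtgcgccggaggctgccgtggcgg
SNHG8, chr4:118278722-118278791, plus strand: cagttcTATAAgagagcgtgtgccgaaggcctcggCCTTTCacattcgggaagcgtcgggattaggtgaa
SNHG12, chr1:28581844-28581913, minus strand: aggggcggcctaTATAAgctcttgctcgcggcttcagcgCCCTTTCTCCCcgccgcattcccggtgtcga
ZFAS1, chr20:49278602-49278671, plus strand: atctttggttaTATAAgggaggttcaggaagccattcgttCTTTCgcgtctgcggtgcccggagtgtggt
DANCR, chr4:52712354-52712423, plus strand: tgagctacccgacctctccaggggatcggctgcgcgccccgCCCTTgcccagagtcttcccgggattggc
GAS5, chr1:173869016-173869085, minus strand: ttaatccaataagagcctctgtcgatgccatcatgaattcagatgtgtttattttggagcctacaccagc
SNHG1, chr11:62855856-62855925, minus strand: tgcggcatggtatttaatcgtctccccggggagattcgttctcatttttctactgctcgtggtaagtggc
EPB41L4A-AS1, chr5:112160486-112160555, plus strand: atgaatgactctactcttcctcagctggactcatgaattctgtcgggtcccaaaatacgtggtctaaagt

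TATAA was found in 5 of the 9 regions, those of SNHG5, SNHG7, SNHG8, SNHG12 and ZFAS1, and in 3.91% of all 35116 start regions of the table. TATAA was chosen after these 9 regions were seen, so this contrast is a description and supports nothing. The pyrimidine tract was found in the same 5 regions and in that of DANCR, against 21.1% of all regions. These letters are a description of the windows, and an annotated start may differ from the start used in these cells. Of the 5 hosts with TATAA, SNHG5 and ZFAS1 were higher in the Indocin library, and SNHG7, SNHG8 and SNHG12 were lower (3 higher and 2 lower with either rescaling). Of the 6 hosts with the tract, 2 were higher and 4 lower (3 and 3 with either rescaling). Of the 3 without it by this search, 2 were higher and 1 lower. The search used 1 annotated start per host and a fixed minimum length. A host without the tract here is therefore not shown to lack a TOP start. The E-box CACGTG, which reads the same on both strands, was found in the 300-base window of SNHG7 alone among the 9, and in 7.26% of all windows. TGATGNAA, the composite element bound by ATF4 and its partners, was found on neither strand in any of the 9 windows, and in 3.62% of all windows.

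GAS5, a host named for its accumulation in growth-arrested cells and known as a decoy of the glucocorticoid receptor, stood at 224.6 FPKM in the Indocin library and 161.9 FPKM in the DMSO library. Its log2 ratio was 0.47, Indocin over DMSO, on the log2(FPKM + 1) scale used for every ratio below. This was the highest ratio among the 10 hosts, and 3.32% of measured genes had one at least as high. EPB41L4A-AS1, the host of SNORA13, followed with 15.8 FPKM in the Indocin library and 12.8 FPKM in the DMSO library (log2 ratio 0.28). SNHG5, the host of the SNORD50 pair, stood at 19.4 FPKM in the Indocin library and 16.8 FPKM in the DMSO library (log2 ratio 0.20). ZFAS1, the host of the SNORD12 family and an RNA known to associate with ribosomes, stood at 94.3 FPKM in the Indocin library and 88.2 FPKM in the DMSO library (log2 ratio 0.09), which lay inside the quartiles of all measured genes (-0.15 and 0.11). These were the 4 hosts that were higher in the Indocin library.

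The other 6 hosts were lower in the Indocin library. SNHG12 stood at 10.9 FPKM in the Indocin library and 14.5 FPKM in the DMSO library, the lowest log2 ratio of the 10 at -0.38. SNHG15, the host of SNORA9 and known as a short-lived RNA, stood at 23.4 FPKM in the Indocin library and 30.2 FPKM in the DMSO library (log2 ratio -0.36). SNHG7, the host of SNORA17 and SNORA43, stood at 13.5 FPKM in the Indocin library and 17.6 FPKM in the DMSO library (log2 ratio -0.35). These 3 ratios were close to each other, and 4.83% of measured genes had a ratio as low as that of SNHG12, 5.68% one as low as that of SNHG15 and 5.84% one as low as that of SNHG7. SNHG1, the host of SNORD22 and of the SNORD25 to SNORD31 cluster, stood at 48.9 FPKM in the Indocin library and 60.3 FPKM in the DMSO library (log2 ratio -0.30). DANCR, the host of SNORA26 and an RNA known to hold back epidermal differentiation, stood at 152.7 FPKM in the Indocin library and 172.5 FPKM in the DMSO library (log2 ratio -0.17). SNHG8 differed least, at 344.9 FPKM in the Indocin library and 352.8 FPKM in the DMSO library (log2 ratio -0.03), and was the only host whose sign turned when the libraries were rescaled, to 0.04 with the same upper quartile and 0.05 with the same sum.

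**Figure D1:**
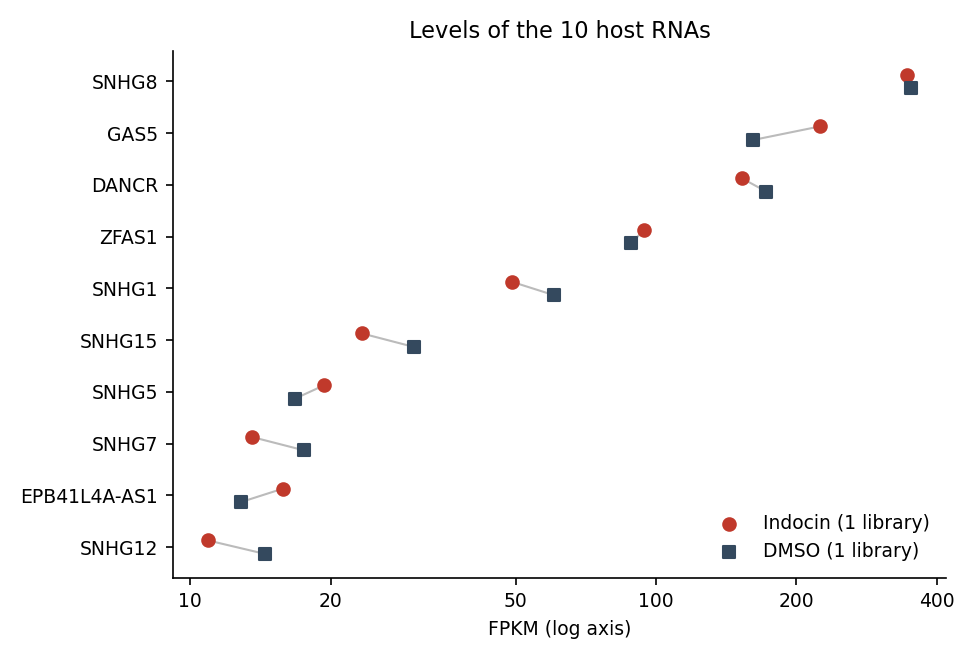
FPKM of each of the 10 host RNAs on a log axis, with circles for the Indocin library and squares for the DMSO library, 1 library each. SNHG8 is highest in both libraries, GAS5 lies further right with Indocin, and the hosts span 10.9 to 344.9 FPKM in the Indocin library and 12.8 to 352.8 FPKM in the DMSO library.

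None of the 10 hosts lay 1.5-fold or more above its DMSO value and none as far below it, where 2.19% of all measured genes were that much higher with Indocin and 0.752% that much lower. At 2-fold there was again no host in either direction, where 0.752% of measured genes were higher and 0.0418% lower. With shares this small over all genes, 0 of 10 lies near the background in both directions. The split of all measured genes at 1.5-fold was 262 higher and 90 lower as deposited, 321 and 58 with the same upper quartile, and 323 and 52 with the same sum. The median log2 ratio of the 10 hosts was -0.10, against -0.03 over all measured genes, and their quartiles, -0.34 and 0.17, were wider than those of all measured genes. Of the 10, 4 ratios were above 0 and 6 below, and 5 were above and 5 below with either rescaling. Among all measured genes 44.8% of ratios were above 0 as deposited, 58.9% with the same upper quartile and 60.4% with the same sum. The rescaled medians were -0.03 and -0.02 for the 10 hosts, against 0.04 and 0.05 over all measured genes, in the order upper quartile and sum.

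As FPKM is scaled by transcript length, levels can be set against each other within a library, as far as the length used is right. The annotation behind the values is unknown, and FPKM is less stable for short RNAs. SNHG8 is such a host, with annotated spliced lengths of 309 to 672 bases. SNHG8 was the highest of the 10 in both libraries, and its mean was exceeded by 1.63% of measured genes. GAS5 and then DANCR came next in the Indocin library, while DANCR and then GAS5 came next in the DMSO library. ZFAS1, SNHG1 and SNHG15 followed in this order in both. At the lower end, SNHG5, EPB41L4A-AS1, SNHG7 and SNHG12 followed in this order in the Indocin library, and SNHG7, SNHG5, SNHG12 and EPB41L4A-AS1 in the DMSO library. Without replicates it cannot be said which neighbours in these orders differ beyond the spread between cultures.

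Summed FPKM of the 10 hosts came to 948.4 in the Indocin library and 927.6 in the DMSO library, a ratio of 1.02. Without GAS5 the sum was 723.8 in the Indocin library and 765.7 in the DMSO library, a ratio of 0.945. GAS5 made up 23.7% of the summed level in the Indocin library and 17.4% in the DMSO library, and SNHG8 made up 36.4% in the Indocin library and 38.0% in the DMSO library. As deposited, the small difference between the sums thus combined a higher GAS5 value with lower values of most other hosts. The sums were not recomputed with either rescaling. These rescalings raised the median log2 ratio of all measured genes by 0.066 and 0.072, so sum ratios this close to 1 depend on the scaling.

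Sorted by cargo, 3 of the 4 hosts of box C/D snoRNAs only (GAS5, SNHG5 and ZFAS1) had ratios above 0, the exception being SNHG1, and their median was 0.15 (0.22 with either rescaling). Of the 5 hosts of box H/ACA snoRNAs only, EPB41L4A-AS1 was above 0 and the other 4 were below, with a median of -0.17. With either rescaling 2 were above and 3 below, with a median of -0.10 for the upper quartile and -0.09 for the sum. Over all measured genes, 44.8% of ratios were above 0 as deposited, 58.9% with the same upper quartile and 60.4% with the same sum. Groups of this size were not tested, and the groups overlapped, since SNHG1 was lower than DANCR and SNHG8, and EPB41L4A-AS1 was higher than SNHG5 and ZFAS1.

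The tables gave few usable values for the mature snoRNAs themselves. Of the 33 snoRNAs of the 10 hosts with a line in the tables, 27 were listed at 0 FPKM in both libraries, all 10 of those of GAS5 among them. Of all 357 snoRNA lines, 84.9% were listed at 0 in both. A listed 0 can be a failed estimate for an RNA shorter than the sequenced fragments, so it does not show absence. Only 5 snoRNAs exceeded 1 FPKM in at least 1 library. SNORD22 from SNHG1 was listed at 154.6 FPKM in the Indocin library and 107.3 FPKM in the DMSO library, the opposite direction to its host. As these were mRNA libraries, this direction cannot be taken as that of the mature snoRNA. SNORA61 from SNHG12 was listed at 92.0 FPKM with Indocin and 96.7 FPKM with DMSO, and SNORA24 from SNHG8 at 21.5 FPKM with Indocin and 22.6 FPKM with DMSO. SNORA9 from SNHG15 was listed at 21.6 FPKM in the Indocin library and 0 in the DMSO library, and SNORA17 from SNHG7 at 0.00055 FPKM in the Indocin library and 36.3 FPKM in the DMSO library. Values that move between 0 and over 20 FPKM for RNAs of this length give no ratio that could be read.

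Another 12 SNHG symbols were listed, of which 10 were measured, while SNHG18 and SNHG22 were listed at 0 in both libraries. SNHG9 came closest to the 1.5-fold limit, at 167.8 FPKM in the Indocin library and 248.7 FPKM in the DMSO library (log2 ratio -0.57). SNHG9 is among the shortest hosts, with annotated spliced lengths of 275 to 471 bases, where FPKM is less stable. SNHG4 stood at 10.5 FPKM in the Indocin library and 15.1 FPKM in the DMSO library (log2 ratio -0.48). SNHG17 (-0.32), SNHG10 (-0.31), SNHG16 (-0.30), SNHG21 (-0.26) and SNHG3 (-0.23) were also below 0. SNHG20 (0.01) and SNHG6 (0.01) lay at 0, and SNHG11 was above it (0.25). Thus 7 of these 10 were below 0 and 3 above, as deposited and with either rescaling. Of all measured genes, 55.2% were below 0 as deposited, 41.1% with the same upper quartile and 39.6% with the same sum. None of the 10 passed 1.5-fold, where 2.19% of all measured genes were that much higher and 0.752% that much lower. The median was -0.28 (-0.21 with the same upper quartile and -0.20 with the same sum).

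**Figure D2:**
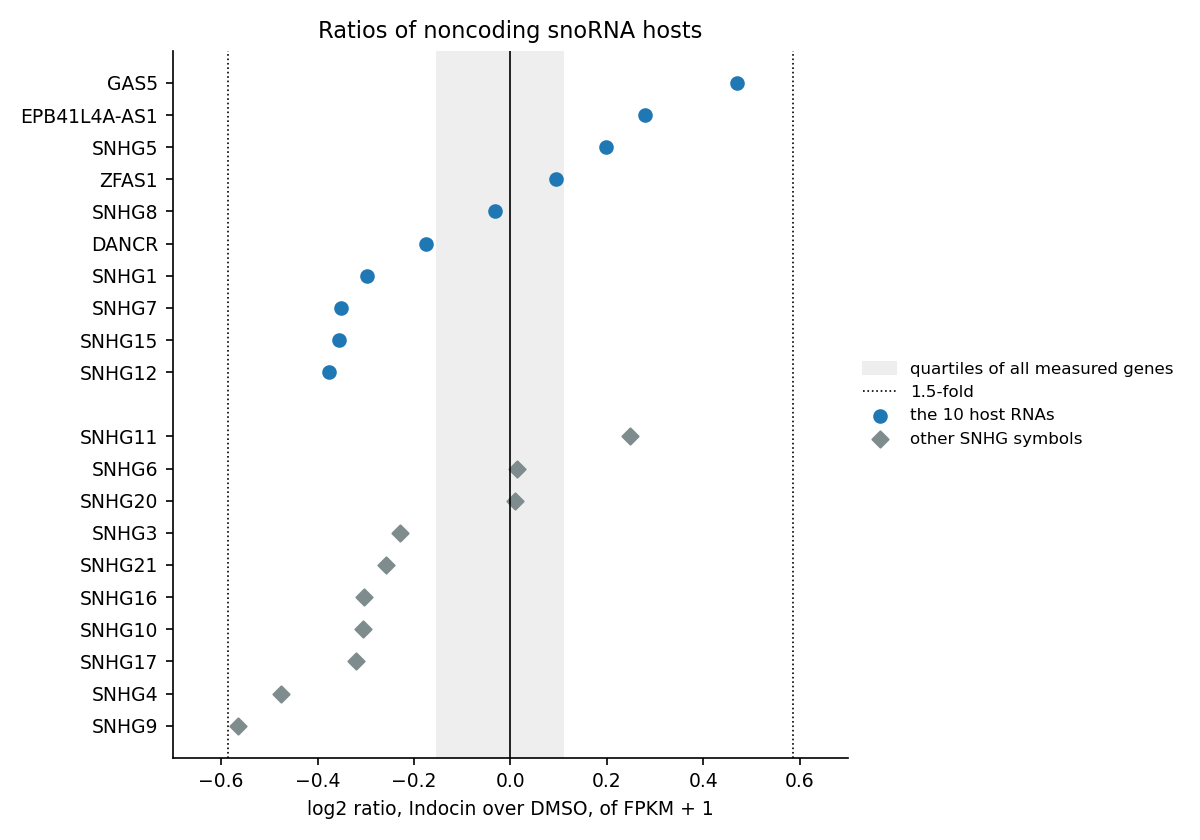
Log2 ratio, Indocin over DMSO, of FPKM + 1 for the 10 host RNAs (circles) and the 10 other measured SNHG symbols (diamonds), with the quartiles of all measured genes shaded and 1.5-fold as dotted lines. GAS5 lies furthest to the right at 0.47 and SNHG9 furthest to the left at -0.57, and no symbol passes a dotted line.

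Most human snoRNAs lie in introns of protein-coding genes, so 38 listed protein-coding hosts were set beside the noncoding ones. None of the 38 passed 1.5-fold, and 20 were above 0 and 18 below. With either rescaling 29 were above 0 and 9 below, where 58.9% and 60.4% of all measured genes were above 0 with the same upper quartile and the same sum. The median was 0.01 as deposited, 0.085 with the same upper quartile and 0.092 with the same sum. The 19 ribosomal protein genes among them had a median of 0.04 (0.11 with the same upper quartile and 0.12 with the same sum). Of these, RPL21 stood apart at 1394 FPKM in the Indocin library and 1002 FPKM in the DMSO library (log2 ratio 0.48), a gene with many processed copies whose reads may be divided among them. The mitochondrial chaperone HSPA9 stood at 184.5 FPKM in the Indocin library and 137.7 FPKM in the DMSO library (log2 ratio 0.42). RCC1, the nucleotide exchange factor of the GTPase Ran, stood at 39.4 FPKM in the Indocin library and 55.7 FPKM in the DMSO library (log2 ratio -0.49). The ribosome biogenesis factor PPAN (-0.45) and nucleolin, NCL (-0.31), were below 0 too. RCC1 shares its locus with SNHG3, so the reads of this pair may be divided between them. Another 40 TOP mRNAs, some of which (RPL5, RPS3A and RPLP2 among them) carry snoRNAs too, had none past 1.5-fold. Their ratios ran from -0.14 for NPM1 to 0.11 for EEF1A1, with a median of 0.01 (0.080 with the same upper quartile and 0.087 with the same sum). The range of the 10 hosts, -0.38 to 0.47, was wider than that of these TOP mRNAs, which also had higher levels.

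Transcripts of proteins that build snoRNPs, the particles of snoRNA and protein, were lower in the Indocin library for 16 of 18 measured genes. The same number were lower with either rescaling, although none passed 1.5-fold as deposited. Among all measured genes 55.2% were below 0 as deposited, 41.1% with the same upper quartile and 39.6% with the same sum. The median of the list was -0.17 as deposited, -0.095 with the same upper quartile and -0.088 with the same sum. Among box C/D core proteins, NOP56 RNA stood at 83.5 FPKM in the Indocin library and 112.7 FPKM in the DMSO library (log2 ratio -0.43). Also below 0 were the transcripts of NOP58 (-0.34) and fibrillarin, FBL (-0.28), of the same core. Those of the box H/ACA proteins GAR1 (-0.33) and DKC1 (-0.29) were below 0 too. NOP56 and DKC1 are snoRNA hosts themselves and belong to both lists. The exceptions were the cap hypermethylase TGS1 (0.21) and the assembly factor ZNHIT3 (0.05).

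The transcripts of NMD and RNA decay factors differed little between the libraries. Among 21 NMD factors none passed 1.5-fold, where 2.19% of all measured genes were that much higher and 0.752% that much lower. Of the 21, 6 were above 0 and 15 below (8 and 13 with either rescaling). The share of all measured genes below 0 was 55.2% as deposited, 41.1% with the same upper quartile and 39.6% with the same sum. The median of the NMD factors was -0.09 (-0.02 with either rescaling). The helicase UPF1 stood at 37.1 FPKM in the Indocin library and 42.8 FPKM in the DMSO library (log2 ratio -0.20). Its kinase SMG1 stood at 5.45 FPKM in the Indocin library and 4.90 FPKM in the DMSO library (log2 ratio 0.13). The adaptor SMG5 stood at 39.8 FPKM in the Indocin library and 42.5 FPKM in the DMSO library (log2 ratio -0.09). The endonuclease SMG6 had the highest ratio of the list (0.30) and the exon junction helicase EIF4A3 the lowest (-0.21). Transcripts of UPF1, SMG1, SMG5 and several other NMD factors are themselves NMD targets and are known to accumulate when the pathway is blocked. Of 21 enzymes of RNA decay none passed 1.5-fold, and 8 were above 0 and 13 below (12 and 9 with either rescaling). The poly(A) nuclease subunit PAN2 was highest (0.23) and the exosome subunit EXOSC9 lowest (-0.36).

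Protein-coding transcripts known to be sensitive to NMD differed widely among themselves. Of 16 measured, 5 passed 1.5-fold towards higher values with Indocin (6 with the same sum, where UPP1 joined them) and none as much lower. Among all measured genes 2.19% were that much higher and 0.752% that much lower (2.7% and 0.435% with the same sum). The list was chosen with earlier results of these data known, and whether NMD had a part in these values was not tested. The stress transcription factors ATF3 (log2 ratio 2.38), DDIT3 (2.18) and ATF4 (1.28), the cysteinyl-tRNA synthetase CARS (1.39) and the growth arrest gene GADD45A (1.27) were the 5. ATF4 stood at 689 FPKM in the Indocin library and 283.9 FPKM in the DMSO library. ATF3, DDIT3 and CARS are also known targets of ATF4. The splicing regulators SRSF2 (-0.51), SRSF3 (-0.23), SRSF7 (-0.22), TRA2B (-0.16), SRSF6 (-0.08) and HNRNPL (-0.02), whose NMD-sensitive isoforms include a poison exon or retained sequence, were all below 0 as deposited, and 5 of these 6 with the same upper quartile and 4 with the same sum. They were set apart after their values were seen. Values per gene symbol do not separate such isoforms from the productive ones.

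**Figure D3:**
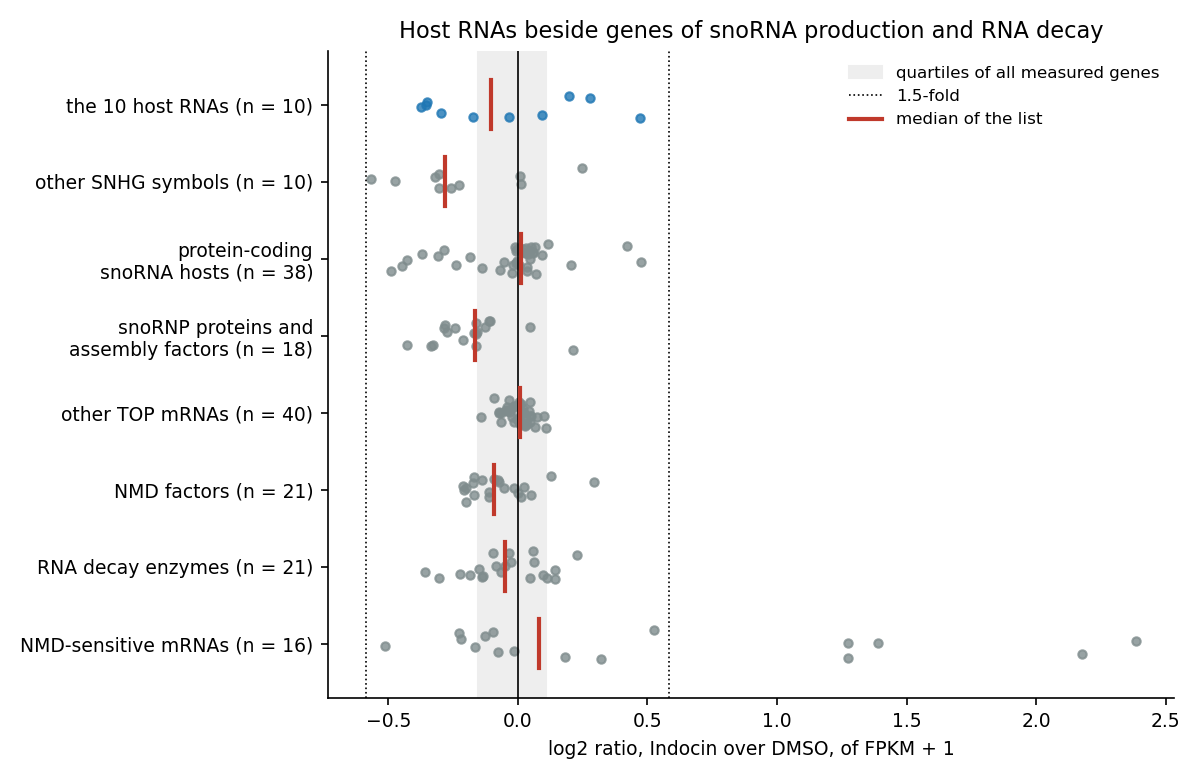
Log2 ratio, Indocin over DMSO, of FPKM + 1 for each measured gene (points) of 8 lists, with the median of each list as a red line, the quartiles of all measured genes shaded and 1.5-fold as dotted lines. The 10 host RNAs spread from -0.38 to 0.47, the other TOP mRNAs lie close to 0, and the 5 points right of the dotted line are all NMD-sensitive mRNAs.

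Host genes often share a locus with a protein-coding gene, and the pair SNHG1 and SLC3A2 differed most. SLC3A2, the heavy chain of the cystine and leucine transporters and a known ATF4 target, stood at 226.5 FPKM in the Indocin library and 85.2 FPKM in the DMSO library (log2 ratio 1.40), while SNHG1 had a ratio of -0.30. The RefSeq table held 3 starts of SLC3A2, and one of them lies 224 bases from the start of SNHG1, on the opposite strand. The 300-base window of SNHG1 is shown because it holds both starts. Capitals at its end mark the SNHG1 transcript, capitals at its beginning mark the SLC3A2 transcript, read here on its opposite strand, and the 223 lower-case bases between them hold 26 CG dinucleotides.
SNHG1, chr11:62855836-62856135, minus strand: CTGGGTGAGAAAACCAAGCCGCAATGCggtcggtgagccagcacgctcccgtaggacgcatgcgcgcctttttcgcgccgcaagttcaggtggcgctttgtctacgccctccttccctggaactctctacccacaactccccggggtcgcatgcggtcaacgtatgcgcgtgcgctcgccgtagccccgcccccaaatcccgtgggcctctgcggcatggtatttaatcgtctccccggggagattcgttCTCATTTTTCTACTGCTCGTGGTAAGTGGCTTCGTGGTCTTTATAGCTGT

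TGATGNAA was found in the window of 1 of the 3 SLC3A2 starts, which was not the start beside SNHG1. The deposited value is per gene symbol, so it was not known which SLC3A2 start the reads came from. The gene next to SNHG1 on its other side, WDR74, a ribosome biogenesis factor, had a ratio of -0.30 (38.0 FPKM in the Indocin library and 47.1 FPKM in the DMSO library), and was chosen after its value was seen.

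Of 8 pairs of a host and a measured neighbour, 4 had ratios of the same sign and 4 of opposite sign as deposited. With either rescaling 2 had the same sign and 6 opposite signs, since TRNAU1AP and CCM2 turned positive. ZBTB37, which overlaps GAS5 on the opposite strand, stood at 3.45 FPKM in the Indocin library and 2.70 FPKM in the DMSO library (log2 ratio 0.27). FAM69B, added after the annotation was read, overlaps SNHG7 on the opposite strand and stood at 8.81 FPKM in the Indocin library and 11.2 FPKM in the DMSO library (log2 ratio -0.32), close to the ratio of SNHG7. The strand setting of the authors' quantification is not given in the sources used here, so reads of such pairs cannot be told apart. This also concerns SNHG12 with TRNAU1AP (-0.01) and ZFAS1 with ZNFX1 (-0.11), whose ratios lay inside the quartiles of all measured genes. SYNCRIP (-0.27), next to SNHG5, CCM2 (-0.03), next to SNHG15, and USP46 (0.04), next to DANCR, lay nearer to 0 than SLC3A2. PRSS12, MYO1G and EPB41L4A, the neighbours of SNHG8, SNHG15 and EPB41L4A-AS1, did not reach a mean of 1 FPKM. EPB41L4A, which overlaps EPB41L4A-AS1, was listed at 0.685 FPKM in the Indocin library and 0.833 FPKM in the DMSO library.

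**Figure D4:**
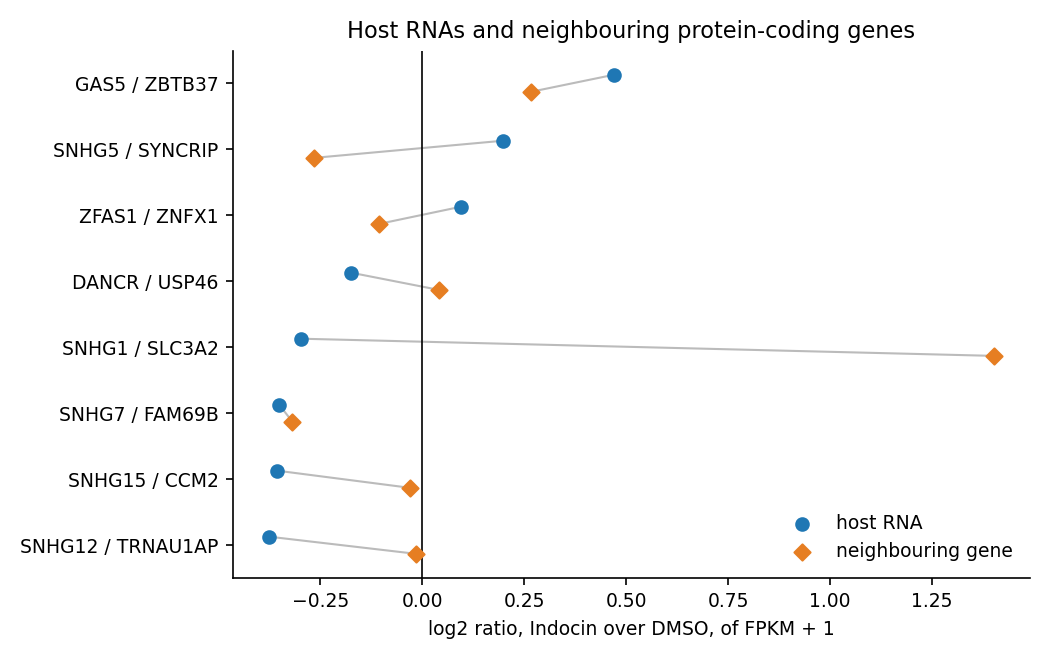
Log2 ratio, Indocin over DMSO, of FPKM + 1 for 8 host RNAs (circles) and a neighbouring protein-coding gene of each (diamonds), joined by a line. SLC3A2 lies at 1.40 and its neighbour SNHG1 at -0.30, while SNHG7 and FAM69B lie side by side at -0.35 and -0.32.

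The 3 measured genes whose pair of values lay closest to that of GAS5, by Euclidean distance in log2(FPKM + 1) over the 2 libraries, were the peroxiredoxin PRDX5 (212.6 FPKM in the Indocin library and 161.2 FPKM in the DMSO library), HAX1 (211.4 FPKM with Indocin and 175.5 FPKM with DMSO) and MTRNR2L2 (199.5 FPKM with Indocin and 178.5 FPKM with DMSO). MTRNR2L2 is a nuclear copy of mitochondrial ribosomal RNA sequence and can share reads with it. With 2 libraries this likeness rests on 2 points per gene.

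All 10 prostate epithelial markers were measured, from 58.1 to 362.3 FPKM in the Indocin library and from 71.7 to 520.3 FPKM in the DMSO library. Of 10 markers of other cell types, 7 were under 1 FPKM in both libraries, and COL1A2 and PECAM1 were listed at 0 in both. The summed level of this second list was 33.5 FPKM in the Indocin library and 42.9 FPKM in the DMSO library, most of it from vimentin, VIM (21.8 FPKM with Indocin and 30.7 FPKM with DMSO).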

How the data were processed

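Stranded mRNA libraries were made from TRIzol-isolated RNA, per the labels' protocols. The deposited values are FPKM per gene symbol, made by the authors, per the file headers. Per the submitters' processing notes, the builds were GRCh37 and hg19, and the tools included Cuffnorm, StringTie, Cufflinks, TopHat and bcl2fastq. Not given in the sources used here were their versions and roles, the annotation and the strand setting. Read depth is unknown, so no counting interval was given.

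Ratios were log2((Indocin FPKM + 1)/(DMSO FPKM + 1)), a scale that understates the change of low genes. Measured genes had a mean of at least 1 FPKM, and 2066 symbols of short RNA genes were left out. Hosts and list genes were counted at 1.5-fold on this scale. No test was possible, as each group had 1 library. Calculations used Python 3.11.15 with pandas 2.3.3 and were tested on simulated data. The hosts, lists and sequence motifs were chosen with earlier results of these data known, and TATAA after the sequences were seen. Genes named were all hosts, all listed neighbours, list members past 1.5-fold or at either end of a list, the SNHG symbols and some fixed names. Alternatives were 2 other pseudocounts, 2 other filters, a median-centred ratio, 2 scalings, short RNA genes kept and a 2-fold threshold. Sequences came from tables of another build (GRCh38) than the files.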

Additional observations from a re-analysis of the deposited data

How the results depend on the processing

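No host passed 1.5-fold in either direction under any of the 9 alternatives (0 higher and 0 lower in each), a 2-fold threshold included. The median log2 ratio of the 10 hosts lay between -0.10 and -0.02 over 8 alternatives. SNHG8 alone changed sign, from -0.03 as deposited to 0.0404 after scaling to a shared upper quartile and 0.0473 after scaling to a shared sum, and the cause was not tested. The ratio of GAS5 lay between 0.46 and 0.55, that of EPB41L4A-AS1 between 0.22 and 0.35, and that of SNHG12 between -0.40 and -0.29. The 2 rescalings moved the median of all measured genes by 0.066 and 0.072. No paired analysis was possible because each group had 1 library, and no replicate could be left out. Depth is unknown, so the smallest difference these libraries could show was not set.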

Other observations

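Some hosts stand in the tables under older symbols, matched through RefSeq synonyms and added after the data were seen. LRRC75A-AS1, now SNHG29, was the highest noncoding host named here, at 691.2 FPKM in the Indocin library and 628.6 FPKM in the DMSO library (log2 ratio 0.14). C6orf48, now SNHG32, stood at 138.2 FPKM in the Indocin library and 119.3 FPKM in the DMSO library (log2 ratio 0.21). These and the further SNHG symbols, which together lay on both sides of 0, were not sorted by cargo. Whether the split by cargo recurs outside the hosts sorted above was therefore not tested. LINC00888, now SNHG33, stood at 1.28 FPKM in the Indocin library and 1.34 FPKM in the DMSO library (log2 ratio -0.03).

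Other long noncoding RNAs with nuclear roles differed in direction, and the median log2 ratio of the 10 measured was 0.07. NEAT1, the scaffold of paraspeckles, stood at 126.2 FPKM in the Indocin library and 84.8 FPKM in the DMSO library (log2 ratio 0.57). With either rescaling NEAT1 passed 1.5-fold, at 0.64 and 0.65, where 2.68% and 2.7% of all measured genes were that much higher. MALAT1, of nuclear speckles, stood at 171.9 FPKM in the Indocin library and 130.0 FPKM in the DMSO library (log2 ratio 0.40). RPPH1, the RNA of ribonuclease P, stood at 4.91 FPKM in the Indocin library and 8.06 FPKM in the DMSO library (log2 ratio -0.62). It passed 1.5-fold as deposited, where 0.752% of all measured genes were that much lower, but not with either rescaling (-0.55). RPPH1 is a short RNA whose FPKM is unstable. The host RNAs GAS5 and SNHG12, at 0.47 and -0.38, lay between NEAT1 and RPPH1.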
